A study of Mus musculus with 8 samples.

Results

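Nuclear genes of oxidative phosphorylation were followed in Pdgfra-expressing cells sorted from hindlimb muscle of wild type and dysferlin-deficient mice. The set holds every gene whose symbol starts with Nduf, Uqcr, Atp5, Cox4, Cox5, Cox6, Cox7 or Cox8: 89 of the 31053 features, under 88 symbols, since Atp5o has 2 identifiers, of which 1 had no count. By role these were 7 core and 29 accessory subunits of complex I, 8 genes of complex III, 20 of complex IV, 17 of ATP synthase and 8 assembly factors of complex I. Ndufa4 and its relative Ndufa4l2, named for complex I, were placed with complex IV. The cells were the fibro/adipogenic progenitors (FAPs) of skeletal muscle, mesenchymal cells that support regeneration and can form fat and scar tissue. Both groups were females of 8 months. The wild type mice carried the strain label C57BL/6. The dysferlin knockout mice carried the strain label BLA/J, and the protocol text writes B6A/J, so that genotype cannot be told apart from strain or from the library. The labels list 4 samples in each group, but the files hold 1 pooled matrix per group, with counts of unique molecular identifiers (UMIs) and no map from cells to mice. Every value below therefore compares 2 libraries, without replicates and without a test, and each interval is a 95% interval that covers counting error only.

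Oxidative phosphorylation passes electrons from NADH and succinate through complexes I, II, III and IV to oxygen, and the proton gradient built on the way drives ATP synthase. Mitochondrial DNA encodes cytochrome b of complex III and the catalytic core of complex IV. It also encodes part of the membrane arm of complex I and a piece of ATP synthase. All other subunits are nuclear, are made in the cytosol and must be imported. Several complex IV subunits exist as a widely expressed form and a form restricted to muscle, lung, testis or hypoxic cells.

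Cells were kept when they had at least 500 genes, at most 10% mitochondrial UMIs and at least 1 Pdgfra UMI. This left 1533 of 2073 barcodes in the wild type library, with 14420247 UMIs and a median of 9177 per cell. The knockout library kept 1435 of 1724 barcodes, with 19170199 UMIs and a median of 12717. The stromal markers Dcn and Gsn were seen in at least 99.9% of cells of each library. Pdgfrb, the lowest of the 10 stromal markers by level, was seen in 56.6% of wild type and 69.1% of knockout cells. Levels are in CPM, UMIs for each 1000000 UMIs of a library. Markers of T cells, satellite cells and adipocytes summed to at most 0.261 CPM each. At least 2 UMIs of mural markers were held by 8.22% of wild type and 15.0% of knockout cells. For muscle fibre markers these shares were 8.74% and 9.97%, for tenocyte markers 3.39% and 7.04%, and for endothelial markers 2.94% and 2.02%. Macrophage markers were at 5.96 CPM in wild type and 64.7 in the knockout library, and red cell markers at 842 and 30.3, where 18 and 29 cells held at least 2 red cell UMIs. Dysf itself gave 9 UMIs in wild type and 14 in knockout cells, too few to check the labels. The 2 matrices share 13 barcodes, 2 of them among the kept wild type cells and 4 among the kept knockout cells. At the edge of the Pdgfra rule, the summed level of the set was 15492 CPM in the 263 wild type cells with 1 Pdgfra UMI and 15763 in the 264 barcodes with none, and 15163 and 14725 in the 170 and 149 such knockout barcodes.

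Promoter sequence of the members was examined as a description. Its relation to how subunits varied together over cells, described further on, was not tested. RefSeq windows on GRCm38.p6, from 250 bases before to 50 bases after a gene's start, were matched for 73 of the 88 symbols. Nuclear respiratory factor 1 (NRF1) is a transcription factor known for binding promoters of respiratory genes. Its motif, GCGC followed by A, any base and GCGC again, searched on both strands, lay in the windows of 17 of the 73 members (23.3%), against 13.2% of the 4778 genes with a mean level of at least 20 CPM and 5.19% of all 27025 genes with a window. The YY1 motif AAGATGGC, also on both strands, was present in 11 members (15.1%), against 5.94% of the genes with that level. The ETS-family motif CCGGAAGT was present in 5 members (6.85%, against 10.0%), and the SP1 motif GGGCGGGG in 15 (20.5%, against 39.5%). Genes may have more than 1 window, and a match describes letters, not binding. The stretches below show how the NRF1 motif sits before the start in the most abundant member with such a stretch outside annotated exons, for complex I accessory subunits, complex IV and ATP synthase. Capitals mark the NRF1 motif, and all 3 are on the minus strand, written 5′ to 3′ along the gene.
Ndufs5, chr4:123718250-123718309: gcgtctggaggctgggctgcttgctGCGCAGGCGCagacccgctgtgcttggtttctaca
Cox6a1, chr5:115349041-115349100: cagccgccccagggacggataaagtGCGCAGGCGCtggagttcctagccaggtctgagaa
Atp5h, chr11:115420026-115420085: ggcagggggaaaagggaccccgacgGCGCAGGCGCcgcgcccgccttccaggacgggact
The same 10 letters occur in all 3, with the first base of the motif 98, 117 and 141 bases before the start.

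Together the members took 1.43% of all UMIs in wild type and 1.40% in the knockout cells. The sum was 14304 CPM (14242 to 14366) in wild type and 14012 (13959 to 14065) in knockout cells, and the log2 ratio, always knockout over wild type, was -0.03 (-0.04 to -0.02). At a mean level of at least 20 CPM, 76 members were measured, with a median log2 ratio of -0.03, against 0.05 over all 5933 genes measured. Above 0 were 32 members and below it 44, against 3478 and 2455 of all measured genes. None of the 76 was 1.5-fold apart between the libraries, where 8.66% of all measured genes were (5.07% higher and 3.59% lower in the knockout library). Past a log2 ratio of 0.32, or 5 to 4, were 3 members (24.6% of all measured genes), Uqcrq and Atp5k on the higher side (15.2% of all) and Cox7a2l on the lower (9.37% of all). The counting interval lay above 0 in 18 members and below 0 in 28, against 36.1% and 22.7% of all measured genes. Of genes with at least 100 CPM, 94.5% of 55 members lay within that smaller range, against 71.2% of 1444 genes.

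Levels between genes are given as CPM without division by length, since the 3′ kit tags each RNA molecule once. All complexes were detected, but their subunits were spread over a wide range of levels, from 21.6 to 567 CPM among the measured members. The 3 most abundant single genes were of complex IV, while by sum the accessory subunits of complex I stood higher, as given below for each. Cox4i1, the regulatory subunit IV, stood at 605 CPM in wild type and 529 in knockout cells. Cox6c stood at 489 and 525, and Cox8a, a small membrane subunit, at 531 and 471. In ATP synthase the most abundant were Atp5e (443 and 501), which encodes the epsilon subunit of the central stalk, the membrane subunit gene Atp5l (377 and 362) and Atp5b (382 and 330), which encodes the catalytic beta subunit. In complex III the hinge protein gene Uqcrh led, at 394 and 383, before Uqcrb (237 and 221), and the order of its members ended with the core and Rieske genes.

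**Figure D1:**
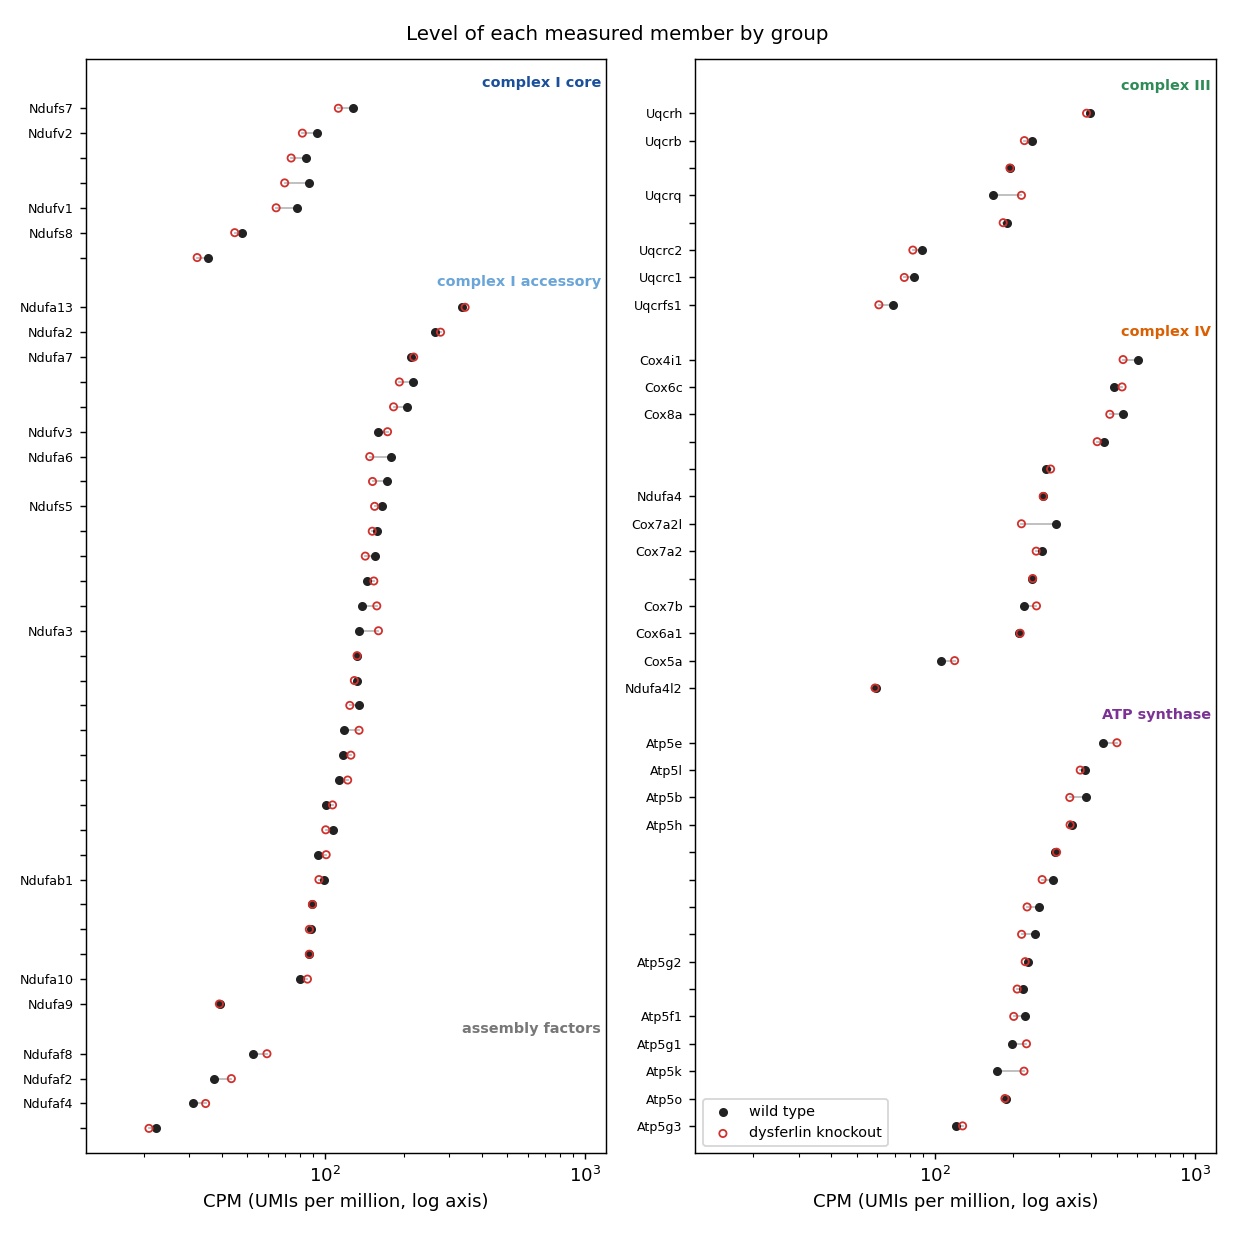
Level of each of the 76 measured members in CPM (log axis), with the wild type library as filled and the knockout library as open points, by complex, with names for the genes described in the text. Pairs lie close together in every group, with Cox7a2l, Uqcrq and Atp5k the widest apart, and complex I core and assembly factor genes lie below most others.

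Complex I splits by role. Its 7 nuclear core subunits, which carry the flavin and the iron-sulphur clusters and take part in electron transfer and quinone reduction, summed to 552 CPM in wild type and 479 in knockout cells. The log2 ratio was -0.20 (-0.25 to -0.16), and all 7 were lower in the knockout library, with counting intervals below 0 in 5. For this count and those of the other complexes below, 2455 of all 5933 measured genes were lower, and 22.7% had intervals below 0. Ndufs7 was the most abundant core gene, at 128 and 112 CPM. Ndufv1, which binds NADH through its flavin, stood at 77.6 and 64.7 (log2 ratio -0.26, -0.38 to -0.14). The smallest difference of the 7, that of Ndufs8, was -0.09 and its interval held 0 (-0.24 to 0.06).

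The 29 accessory subunits, which surround and stabilise the core, summed to 4178 CPM in wild type and 4167 in knockout cells (log2 ratio 0.00, -0.02 to 0.01). The sum was slightly below 0 and the median ratio slightly above it, each by less than counting error. They went both ways, with 16 above and 13 below 0, or 11 and 18 when centred on the median of all measured genes. Ndufa13, the most abundant, stood at 336 and 345 CPM, Ndufa2 at 264 and 277, and Ndufa7 at 214 and 219. Ndufa6 was the lowest by ratio, at 179 and 148 (-0.28, -0.35 to -0.20). Ndufa3 was the highest, at 135 and 160 (0.24, 0.16 to 0.33).

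Assembly factors were the scarcest group, with 4 of 8 measured. Ndufaf8 stood at 52.7 and 59.6 CPM, Ndufaf2 at 37.2 and 43.5 (0.22, 0.07 to 0.38) and Ndufaf4 at 30.9 and 34.6 (0.17, -0.01 to 0.34). The fourth measured factor was lower in the knockout library, with an interval that held 0 (-0.09, -0.31 to 0.13). The sum of all 8 was 189 CPM in wild type and 202 in knockout cells. Its log2 ratio of 0.10 (0.03 to 0.17) lay on the other side of 0 from the core subunits these factors help to assemble. Under the alternatives run this ratio was as low as 0.04.

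Complex III showed a like split within the same total. Its sum was 1423 CPM in wild type and 1416 in knockout cells. The core and Rieske genes Uqcrc1, Uqcrc2 and Uqcrfs1 were all lower in the knockout library, with a summed log2 ratio of -0.14 (-0.20 to -0.07). The 5 small subunits summed to a log2 ratio of 0.02 (-0.01 to 0.05), which falls below 0 when centred on the median of all measured genes, and Uqcrq stood apart from the other 4. Uqcrq, a small subunit beside cytochrome b, went from 168 CPM in the wild type to 215 in the knockout cells (0.36, 0.29 to 0.43), the largest positive ratio of the 76 members. Uqcrb, by contrast, was slightly lower (-0.10, -0.17 to -0.04).

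ATP synthase differed by part of the enzyme. The F1 head and central stalk genes had a summed log2 ratio of -0.05 (-0.08 to -0.03), and 4 of the 5 were lower, with Atp5b at -0.21 (-0.26 to -0.16). Atp5e, the fifth, was higher at 0.18 (0.13 to 0.22). All 4 measured peripheral stalk genes were lower (summed -0.08, -0.11 to -0.05), with counting intervals below 0 in 2. The 3 small membrane subunit genes summed to 0.06 (0.03 to 0.10), and Atp5k alone, at 173 and 220 CPM, had a ratio of 0.35 (0.28 to 0.42). Over the whole enzyme the sum was 3962 CPM in wild type and 3915 in knockout cells, a log2 ratio of -0.02 (-0.03 to 0.00), which changed sign in cells with at least 3 Pdgfra UMIs, as did the sums of complex III and of the complex I accessory subunits.

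The c-ring, the rotor of ATP synthase, is encoded by 3 genes whose mature proteins are the same. Atp5g2 supplied 41.7% (40.6 to 42.8) of c-ring UMIs in wild type and 38.7% (37.8 to 39.6) in the knockout cells. Atp5g1 supplied 36.3% (35.2 to 37.4) and 39.1% (38.2 to 40.0), and Atp5g3 22.0% and 22.2%. Atp5g1 itself went from 198 to 225 CPM (0.18, 0.12 to 0.25), while Atp5g2 stood at 228 and 222. Each of the first 2 shares differed between the libraries by more than counting error, while within the knockout library the 2 shares did not differ beyond it. Mouse-to-mouse spread was not measurable. Without the cells that held a Cxcl9 or Cxcl10 UMI, genes induced by interferon, the ratio of Atp5g1 was 0.0057, that of Atp5e 0.05, that of Atp5k 0.22 and that of Uqcrq 0.23.

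In complex IV the sum was 4000 CPM in wild type and 3834 in knockout cells (-0.06, -0.08 to -0.05). Cox7a2l helps to join complexes III and IV into supercomplexes and so is no ordinary subunit. Of the 76 measured members it had the largest ratio in either direction. It stood at 293 CPM in wild type and 215 in knockout cells (-0.44, -0.50 to -0.38), and the 2 libraries differ in strain label as well as in genotype. Its share of the Cox7a family was 52.7% (51.6 to 53.8) in wild type and 46.3% (45.3 to 47.4) in the knockout cells, with Cox7a2 at 46.6% and 52.8%. The level of Cox7a2 itself was not higher in the knockout library, at 259 CPM in wild type and 245 in knockout cells (-0.08, -0.14 to -0.01). Cox4i1 had a ratio of -0.19 (-0.23 to -0.15). Cox8a had -0.17, while Cox5a was at 0.17 and Cox7b at 0.16.

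The ratios of members were related to the size of the protein. Among the 18 members of 200 codons or more, 16 were lower in the knockout library, with a median log2 ratio of -0.15. Among the 19 below 100 codons, 12 were higher and the median was 0.06 (10 and 0.01 when ratios are centred on the median of all measured genes), and the 39 between had a median of -0.03. Across the 76 genes, which share 2 libraries and are not independent replicates, the log2 coding length and the log2 ratio had a Pearson's r of -0.43 and a Spearman's rho of -0.46. Over 5892 measured genes with a coding length the same values were 0.14 and 0.22, and of all 4885 measured genes of 200 codons or more 1922 were below 0, with a median ratio of 0.07. Of all 165 measured genes below 100 codons 81 were above 0, with a median of -0.0032. The 18 long members include all 7 core subunits of complex I, each lower in the knockout library, and 3 of its accessory subunits. Of these accessory subunits, Ndufa10 was at 0.09 (-0.02 to 0.20) and Ndufv3 at 0.12 (0.04 to 0.19), the only 2 of the 18 above 0, and Ndufa9 was at -0.01 (-0.17 to 0.15). With so few long accessory genes, size against role was not tested. Mean level and ratio were nearly unrelated among the members (r -0.04).

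**Figure D2:**
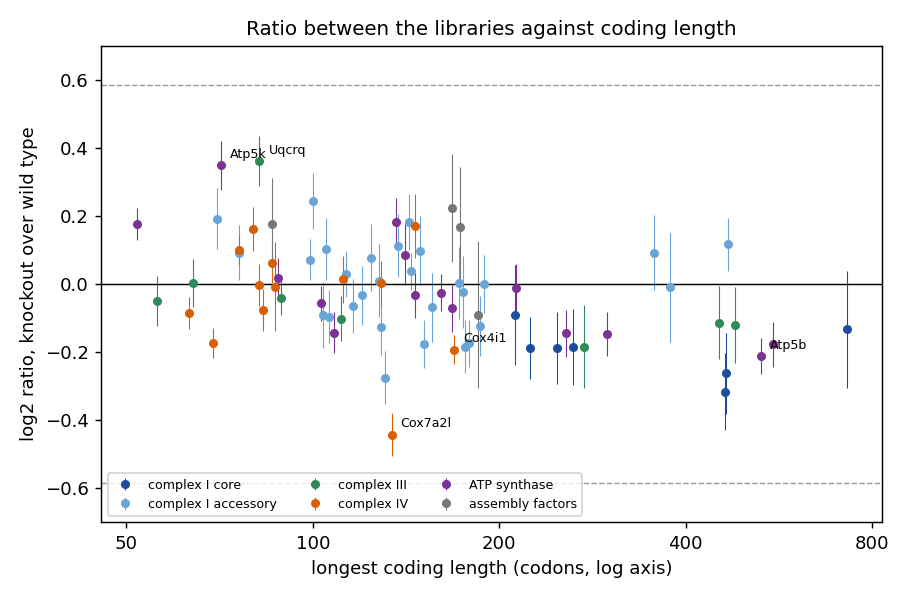
Log2 ratio, knockout over wild type, against the longest coding length in codons (log axis) for the 76 measured members, coloured by group, with 95% counting intervals and dashed lines at 1.5-fold. No point passes a dashed line, and 16 of the 18 members of at least 200 codons lie below 0.

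Partners of these enzymes were described from lists set beside the members. For the counts below, 2455 of all 5933 measured genes were lower in the knockout library and 3478 higher. The 4 genes of complex II, Sdha, Sdhb, Sdhc and Sdhd, were all lower in the knockout library (summed -0.11, -0.17 to -0.04), with intervals below 0 in 2. Of 13 genes of the citrate cycle, 10 were lower and 3 higher (summed -0.13, -0.17 to -0.10). Suclg1, a subunit of succinyl-CoA ligase, was at -0.43, and Cs, citrate synthase, at 0.36. Of 13 mitochondrially encoded subunits 9 were lower, with a median ratio of -0.02. Their sum was 34160 CPM in wild type and 31899 in knockout cells (-0.10, -0.10 to -0.09). The largest part of that difference came from mt-Co1, at 3799 CPM in wild type and 2344 in knockout cells (-0.70). The gene mt-Atp8 stood at 143 and 250 (0.80). The rule for keeping cells capped mitochondrial UMIs at 10% of a cell, which limits this sum. Mitochondrial ribosomal protein genes were at 0.05 (36 of 62 higher), as was the median of all measured genes. The biogenesis regulators summed to -0.01 with 4 of 11 measured, and Tfam, the mitochondrial DNA packaging factor, stood at 26.6 and 26.9 CPM.

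Most tissue-restricted isoforms were near absent. Cox7b2 and Cox8c had no UMI in either library, and a count of 0 leaves room for 0.208 CPM (wild type) and 0.156 CPM (knockout). Cox4i2, the form of subunit IV known from lung and hypoxic cells, had 16 and 8 UMIs, or 0.183% and 0.0788% of the Cox4 pair. The muscle forms Cox6a2, Cox7a1 and Cox8b gave 0.347, 3.81 and 4.65 CPM in wild type and 0.365, 3.91 and 5.16 in the knockout library. Muscle fibre RNA was also present in these cells, where 11 fibre markers summed to 45.8 CPM in wild type and 46.7 in the knockout library. Of these, Acta1 stood at 9.29 and 7.88, Ckm at 5.55 and 4.80 and Tnnt3 at 9.78 and 11.1. The part of fibre RNA in the muscle isoform counts was not tested. Cox6b2, the testis form, stood at 7.00 and 4.59 CPM (-0.61, -1.04 to -0.18), or 2.56% (2.09 to 3.10) and 1.62% (1.30 to 1.99) of the Cox6b pair.

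Ndufa4l2 was the exception. This relative of Ndufa4 is known as a hypoxia-responsive gene and as a marker of pericytes. It stood at 59.2 CPM (55.2 to 63.3) in wild type and 58.8 in the knockout library, 18.4% of the Ndufa4 pair in each. Before thinning, 28.0% of wild type and 36.2% of knockout cells held a UMI. With each cell thinned to 3000 UMIs the shares were 15.7% and 15%. In barcodes without Pdgfra that carried at least 3 macrophage UMIs, none of 9 wild type and none of 5 knockout barcodes held a Ndufa4l2 UMI, at medians of 3638 and 22317 UMIs. In the 18 wild type barcodes without Pdgfra that carried at least 3 mural UMIs, it stood at 150 CPM from 17 UMIs, and in the 3 such knockout barcodes at 52.3 CPM (6.33 to 189) from 2 UMIs. In the 38 wild type barcodes without Pdgfra that carried at least 3 endothelial UMIs it stood at 134 CPM from 30 UMIs, and in the 6 such knockout barcodes at 37.2 from 2. The endothelial and mural sets were not exclusive. Those 38 barcodes also held mural markers at 1703 CPM, with 324 UMIs of the mural gene Rgs5, against 328 in the 18 mural barcodes. The 134 CPM is therefore no separate endothelial level.

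Spread over cells was measured at 3000 UMIs per cell, which left out 114 wild type and 69 knockout cells below that depth. The share of UMIs from the whole set had a mean of 1.40% and an SD of 0.40 percentage points over 1419 wild type cells, and 1.35% and 0.45 over 1366 knockout cells. Single cells ran from 0.133% to 3.20% in wild type and from 0.10% to 3.67% in the knockout library. The 2 distributions overlapped almost wholly, with 85.1% of knockout cells between the 5th and 95th percentile of the wild type cells (0.80% and 2.03%), 8.57% below and 6.30% above. The coefficient of variation was 28.7% in wild type and 33.3% in the knockout cells, of which counting alone gives 15.3% and 15.6%. What remained after counting was 24.2% and 29.4%. No test of the difference in spread between libraries is possible with 1 library each.

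**Figure D3:**
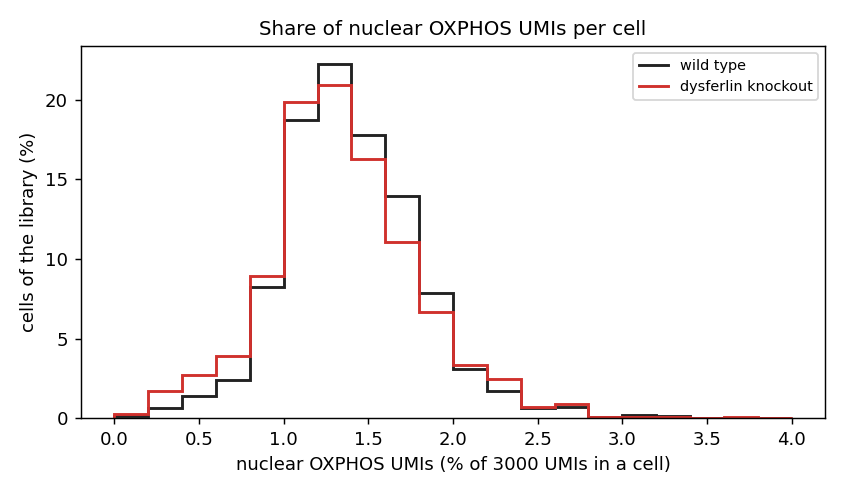
Share of nuclear OXPHOS UMIs per cell, in percent of 3000 UMIs, over 1419 wild type and 1366 knockout cells. The 2 distributions lie over each other, and the knockout cells reach further down below 0.8%.

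The subunits of different complexes moved together over cells, though weakly in such sparse counts. Pearson's r between the summed shares of complexes I (accessory), III, IV and ATP synthase ran from 0.29 to 0.41 over wild type cells and from 0.34 to 0.50 over knockout cells. The share of the whole set was more closely related to the cytosolic ribosomal protein share (0.42 and 0.61) than to the mitochondrially encoded share (0.13 and 0.13). It also rose with depth before thinning (0.14 and 0.25): of 4 equal groups of cells by depth, the shallowest averaged 1.29% and 1.19%, and the deepest 1.43% and 1.47%. Ribosomal protein genes took 15.6% of UMIs per cell in wild type and 12.6% in the knockout library, and the part of depth and of ribosomal protein RNA in these relations was not tested.

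At the few UMIs per cell that a single member gives, counts were close to Poisson over cells. A ratio near the counting value at such counts does not show an even level over cells. For the 74 members with at least 0.1 UMIs per cell after thinning, the median ratio of variance to mean was 1.02 in wild type and 1.04 in the knockout cells, where 1 is what counting gives. Above 1.2 were 1 member in wild type and 3 in knockout cells (1.35% and 4.05%), against 18.2% and 20.4% of 4171 genes with that level. The highest was Ndufa4l2, at 1.29 and 1.28. Atp5e followed at 1.19 and 1.253, Atp5g1 at 1.13 and 1.22, Ndufa13 at 1.11 and 1.18 and Cox6c at 1.10 and 1.17. The lowest were Ndufa9 (0.94 and 1.00), Ndufv2 (0.97 and 1.00), Atp5f1, Cox5a and Ndufab1, all at or near the counting value. The summed share of the set had 3.50 times the variance that counting gives in wild type and 4.56 times in knockout cells. That sum held a median of 42 and 40 UMIs per cell, and such a ratio rises with the mean count. These ratios therefore do not compare the spread of single members with that of the sum.

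**Figure D4:**
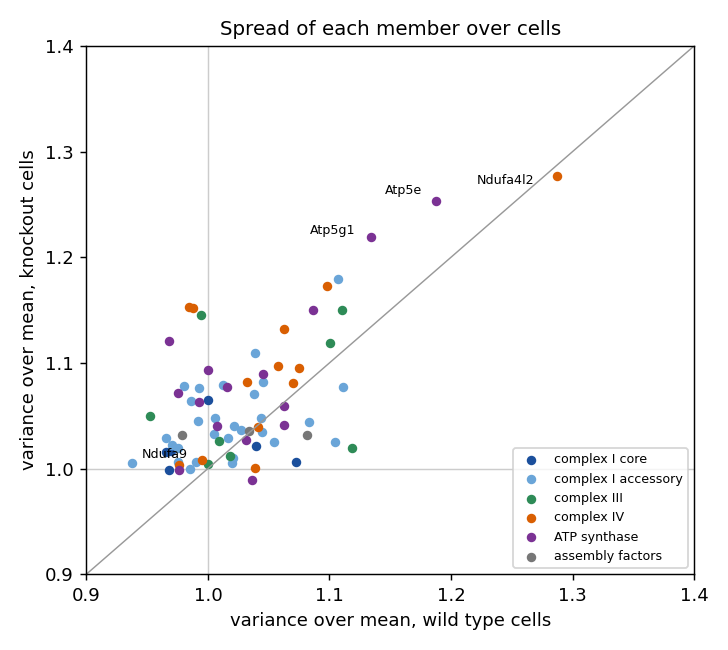
Variance over mean across cells at 3000 UMIs for 74 members, wild type on the horizontal and knockout on the vertical axis, with grey lines at the counting value of 1 and the diagonal at equality. Ndufa4l2 stands at the top right at 1.29 and 1.28, with Atp5e and Atp5g1 next.

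Levels were then compared between ranges of cells defined by other genes. A range holds the cells with the most UMIs of a short list, a matter of degree and not a cell type. Cells high in immediate early genes (Egr1, Btg2, Ier2, Junb, Fos, Jun), which respond to dissociation and other stress, had less of the set than the rest, with a log2 ratio of -0.15 (-0.18 to -0.13) in wild type and -0.12 (-0.15 to -0.08) in the knockout library. That range held 365 wild type and 189 knockout cells. Cells high in the progenitor genes Dpp4, Pi16, Cd55 and Sema3c also had less, at -0.04 (-0.07 to -0.015) and -0.12 (-0.16 to -0.09). Cells with Comp or Clu had more, at 0.05 (0.02 to 0.08) and 0.21 (0.18 to 0.25). Cells with the inflammatory genes Cxcl9, Cxcl10, Ccl2 or Ccl7 had more in the knockout library, at 0.17 (0.14 to 0.20), while the wild type interval held 0 (0.05, -0.0016 to 0.095). Cells with cycling genes were few, 8 and 29, and stood highest, at 0.19 (0.04 to 0.33) and 0.32 (0.24 to 0.39). Depth before thinning moved with some of these ranges. Cycling cells had a median of 22960 UMIs against 9452 outside in wild type, and 18086 against 13002 among knockout cells. Inflammatory knockout cells had a median of 15288.5 against 12655 outside. The part of depth in these ratios was not tested.

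Ndufa4l2 was low in the progenitor range, the cells with at least 6 UMIs of Dpp4, Pi16, Cd55 and Sema3c, genes known to mark an adventitial, Dpp4-positive state of FAPs. Inside that range 6.37% of 314 wild type and 4.19% of 215 knockout cells held a Ndufa4l2 UMI, against 18.4% and 17.0% outside. Its level was 25.5 CPM inside and 77.5 outside in the wild type (log2 ratio -1.61, -2.27 to -1.0), and 20.2 and 68.3 in the knockout library (-1.76, -2.69 to -0.96), from 24 and 13 UMIs inside. In the range with Comp or Clu it was higher, at 108 inside and 56.7 outside in the wild type (0.93, 0.54 to 1.31) and 111 and 53.0 in the knockout cells (1.06, 0.62 to 1.48). These were the only 2 of 442 pairs of a member and a range 1.5-fold apart in the same direction in both libraries. Each pair counted had at least 30 UMIs expected inside in each library. The pattern was picked from these pairs after their values were seen. The same count was not made for other genes, so no share over all genes stands beside it.

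Seen from the other side, cells with a Ndufa4l2 UMI had less Sema3c (-2.33 in wild type and -2.07 in the knockout library), less Dpp4 (-1.60 and -1.86), less Cd55 (-0.95 and -1.23) and less Pi16 (-1.12 and -0.93). They had more Clu in both libraries (0.58, 0.23 to 0.91, and 1.07, 0.61 to 1.52). Comp was higher in them in the knockout library (0.86, 0.39 to 1.30), with an interval that held 0 in the wild type (-0.02, -0.47 to 0.41). The same cells had slightly more of all other members together (0.09, 0.06 to 0.12, and 0.17, 0.14 to 0.20). Mural markers were higher in them in the wild type (0.64, 0.15 to 1.11) and had an interval that held 0 in the knockout library (-0.18, -0.82 to 0.41). Muscle fibre markers were higher in them in the knockout library (0.94, 0.45 to 1.40), with an interval that held 0 in the wild type (0.31, -0.26 to 0.84), and their part in the result was not tested. The 7 mural markers summed to 42.3 and 48.3 CPM over all kept cells, none of the 7 at 0 in either library. In cells with at least 3 Pdgfra UMIs the progenitor ratio of Ndufa4l2 was smaller in wild type, at -0.78 (-1.49 to -0.12), and larger in knockout cells, at -2.77 (-4.41 to -1.52). With the range taken from 4 UMIs in place of 6, it was -1.58 in wild type and -1.15 among knockout cells. Without any cell that held a mural UMI, it was -1.81 in wild type and -2.35 in the knockout cells.

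**Figure D5:**
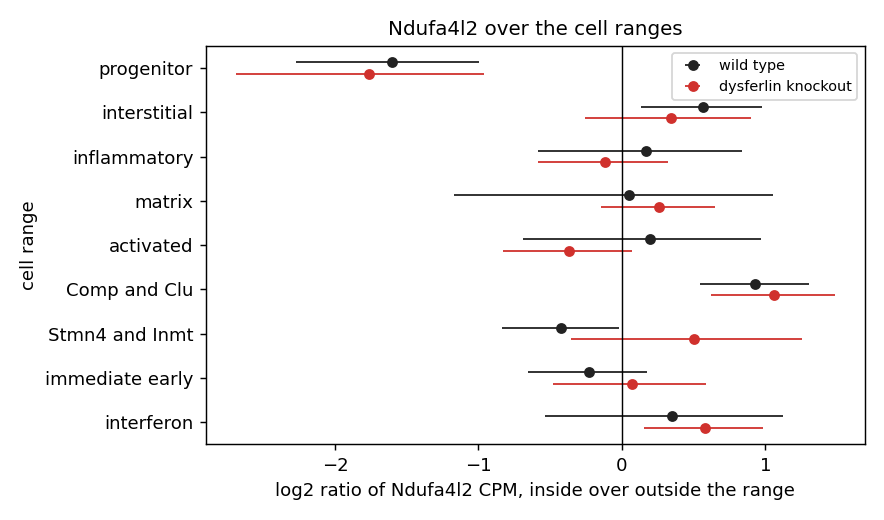
Log2 ratio of Ndufa4l2 CPM inside over outside 9 cell ranges, with 95% counting intervals, for wild type and knockout cells at 3000 UMIs. The progenitor range lies far to the left in both libraries (-1.61 and -1.76), and the Comp and Clu range to the right (0.93 and 1.06).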

How the data were processed

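Per the labels' protocols, live PDGFRα-positive single cells were sorted with a doublet gate and libraries made with the 10x 3′ kit, version 3. The deposited values are UMI counts of each gene in each barcode, not normalized. The submitters' processing notes name Cell Ranger 3.0.0, Seurat and mm10, and, per the file headers, version 3.0.2 of the software wrote the matrices. How cells were told from empty droplets is not stated in these sources, and no doublet caller was run here. Members have processed pseudogenes in the genome, and how reads shared with them were counted was not tested.

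UMIs were summed over the kept cells of each library and divided by its total to give CPM. Log2 ratios have exact conditional binomial intervals, levels exact Poisson intervals and shares exact Clopper-Pearson intervals, at 95% and for counting error only. A count of 0 was taken to allow 3 counts. Cells were thinned with seed 1. A cell range is the smallest whole number of list UMIs that at most 20% of cells of both libraries reach. Coding lengths came from GENCODE M21 and promoter windows from RefSeq, both on GRCm38, the assembly of mm10. The calculations, in Python 3.11.15 with numpy 2.4.6, scipy 1.17.1 and pandas 2.3.3, were tested on simulated data.

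The members, lists and ranges were chosen with earlier results of these data known. Named were isoform families, the 3 most abundant members of each group, members at least 1.5-fold apart, the 5 highest and 5 lowest ratios and the 5 most and 5 least variable members. Other members are named only where a group needs an example, chosen after their values were seen. Alternatives changed the cell filters, scaling, level minimum, fold and thinning. The values of 1 member that the naming rule picks are not reported here.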

Additional observations from a re-analysis of the deposited data

How the results depend on the processing

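No paired analysis was possible because each group is 1 pooled matrix whose cells carry no sample, and for the same reason no replicate could be left out. The summed log2 ratio of the members and their median ratio stayed below 0 under every alternative run, but both are small and moved past counting error under most. The sum was -0.049 and the median -0.043 with the stricter cell filter (1000 genes, 5% mitochondrial UMIs), -0.0099 and -0.0059 with at least 3 Pdgfra UMIs, -0.039 and -0.042 without the Pdgfra rule, -0.096 and -0.098 in cells of 5000 to 15000 UMIs, and -0.048 and -0.050 without the 5% deepest cells. They were -0.066 and -0.082 without cells holding other cell types' markers, -0.052 and -0.063 without the immediate early range, -0.084 and -0.077 without cells with Cxcl9 or Cxcl10, and, in an alternative chosen after seeing the data, -0.052 and -0.055 without cells with red cell UMIs. By scaling they were -0.083 and -0.086 without mitochondrial and ribosomal protein genes in the total, -0.083 and -0.083 centred on the median of all measured genes (0.054), -0.051 and -0.045 with each cell weighted the same, and -0.046 and -0.058 thinned to 3000 UMIs. With at least 3 Pdgfra UMIs the sums of ATP synthase (0.00049), complex I accessory subunits (0.015) and complex III (0.016) changed sign. No member was 1.5-fold apart under any cell filter or scaling run. With a minimum of 5 CPM 1 was (Cox6b2), with 1 UMI in each library 2 were (also Cox4i2), and past 5 to 4 there were 3. Centring left 23 of 76 members above 0 in place of 32. The coefficient of variation was 31.4% for wild type and 35.5% for knockout cells with no filter, 26.9% and 29.9% with the stricter filter, 26.9% and 35.2% at 5000 to 15000 UMIs, 32.3% and 35.9% at 2000 UMIs per cell and 24.7% and 30.9% at 5000. The progenitor ratio of Ndufa4l2, whose alternatives were all chosen after seeing the data, was -0.78 for wild type and -2.77 for knockout cells at 3 Pdgfra UMIs. The causes of these changes were not tested.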
